A study of Mus musculus with 2 samples.

Results

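The loci described here are those of 6 mouse genes of the LIF, JAK and STAT3 pathway: Lif, Lifr, Il6st, Jak1, Stat3 and Socs3. The rule for them names the genes and uses no measured value, although they were chosen with earlier results of these data known, and each locus is the span of the gene in GENCODE vM21 extended by 5 kb upstream. The 6 genes are among 21938 protein-coding genes, and their loci held 3427 of the 13676795 CpG sites measured in replicate 1 and 1329 of the 4918612 measured in replicate 2. SCoTCH-seq, which reads both strands of a DNA fragment together, was run on genomic DNA of E14 mouse embryonic stem cells (mESCs) kept on gelatin in medium with serum and LIF. The 2 samples are replicates of this 1 condition, taken from 2 passages, so that no untreated or LIF-free cells stand beside them. The p-values rest only on spread between these 2 samples, pooled in part over all genes tested. Each read pair gives 1 call of the state of a CpG, written with the plus strand first: C for unmodified cytosine, M for 5-methylcytosine (mC) and H for 5-hydroxymethylcytosine (hmC). CC is thus an unmodified CpG, MM a symmetrically methylated one, MC/CM a hemimethylated one, HC/CH one with hmC opposite an unmodified cytosine, and HM/MH one with hmC opposite mC. A level is the percentage of all calls in a region that fall in a state.

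LIF is a cytokine of the interleukin-6 family. It binds a receptor made of LIFR and gp130, the product of Il6st, and the kinase JAK1 at the receptor tails then phosphorylates STAT3, which enters the nucleus and binds DNA. STAT3 induces Socs3, whose product binds gp130 and the kinase and switches the signal off. In mESCs grown with serum, this pathway keeps the cells self-renewing. CpG-dense promoters are usually unmethylated, most other CpGs are methylated, and hmC is made from mC by the TET enzymes.

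Positions are those of GRCm38. Lif lies at chr11:4257557-4272514, plus strand, Lifr at chr15:7090614-7197489, plus strand, Il6st at chr13:112464070-112510086, plus strand, Jak1 at chr4:101152367-101265282, minus strand, Stat3 at chr11:100885098-100939540, minus strand and Socs3 at chr11:117966079-117970047, minus strand. The last bases of Jak1 and Stat3 overlap the ends of Raver2 and Stat5a on the other strand. The promoter was taken as 1 kb either side of the 5′ end of the gene span, and the gene body as the rest of the span. Of the reference CpGs of a locus, between 51.0% (Socs3) and 76.9% (Il6st) were measured in replicate 1, and between 16.3% (Socs3) and 31.6% (Il6st) in replicate 2. Sites of replicate 1 carried 7.96 (Lif) to 11 (Lifr) calls on average and those of replicate 2 carried 6.19 (Jak1) to 6.44 (Il6st), so the intervals of replicate 2 are the wider ones. Exact Clopper-Pearson intervals at 95% are given for single replicates, and they cover counting error only. They treat calls as independent, although 1 read pair can give calls at neighbouring CpGs, so they are too narrow where CpGs are dense. Across the genome, HM/MH was called at 4.0% in replicate 1 and 2.47% in replicate 2, whereas the levels corrected with each replicate's own synthetic duplexes were 1.3% and 2.11%. HM/MH is therefore given as called and as corrected.

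The bases before the annotated starts show how unlike these promoters are in CpG content. The sequences below come from RefSeq (GRCm38.p6) and end where the first exon of the gene in either annotation begins, and CpGs are in capitals. They are shown to set the CpG content of the starts beside the calls in them: the first holds the fewest CpGs of those shown and had mixed calls, the next 3 held unmodified CpGs, and the last is the CpG-dense start of Lifr, inside the gene span.
Lif, chr11:4257318-4257556, plus strand: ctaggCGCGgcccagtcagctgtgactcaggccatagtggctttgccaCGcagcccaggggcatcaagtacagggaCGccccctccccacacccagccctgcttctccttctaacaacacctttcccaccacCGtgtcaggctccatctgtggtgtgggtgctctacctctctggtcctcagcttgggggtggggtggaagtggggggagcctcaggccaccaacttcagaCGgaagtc
Il6st, chr13:112463820-112464069, plus strand: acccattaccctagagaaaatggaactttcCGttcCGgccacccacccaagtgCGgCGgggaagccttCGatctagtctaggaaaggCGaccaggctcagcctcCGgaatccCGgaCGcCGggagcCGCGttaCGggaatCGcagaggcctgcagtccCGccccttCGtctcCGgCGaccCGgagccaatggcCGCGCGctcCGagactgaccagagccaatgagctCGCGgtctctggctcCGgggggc
Stat3, chr11:100939595-100939790, minus strand: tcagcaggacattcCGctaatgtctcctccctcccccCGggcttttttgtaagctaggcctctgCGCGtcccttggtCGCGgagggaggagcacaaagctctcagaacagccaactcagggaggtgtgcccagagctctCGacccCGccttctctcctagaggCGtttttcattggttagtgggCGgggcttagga
Jak1, chr4:101265283-101265473, minus strand: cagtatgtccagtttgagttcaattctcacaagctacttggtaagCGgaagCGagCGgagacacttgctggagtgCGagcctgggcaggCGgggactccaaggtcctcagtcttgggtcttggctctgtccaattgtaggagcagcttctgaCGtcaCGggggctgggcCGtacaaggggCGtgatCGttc
Lifr, chr15:7129322-7129554, plus strand: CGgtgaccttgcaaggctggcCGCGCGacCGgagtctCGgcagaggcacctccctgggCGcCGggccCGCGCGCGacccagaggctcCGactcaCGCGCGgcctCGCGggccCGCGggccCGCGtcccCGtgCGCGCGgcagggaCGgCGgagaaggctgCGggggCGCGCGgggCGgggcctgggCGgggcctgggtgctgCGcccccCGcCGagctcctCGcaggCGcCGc
In these windows, the 239 bases of Lif held 6 CpGs, the 250 bases of Il6st held 26, the 196 bases of Stat3 and the 191 bases of Jak1 held 10 each, and the 233 bases of Lifr held 40. Where calls were made, Lif differed from the other 3. At Il6st, 100 of 100 calls in replicate 1 were CC. At Stat3, CC took 41 of 41 calls in replicate 1 and 22 of 22 in replicate 2. At Jak1 it took 58 of 59 calls in replicate 1. The Lif window was mixed: of 28 calls in replicate 1, 15 were CC, 8 MM and 2 HC/CH. No CpG of the Lifr window was measured in either replicate, and replicate 2 had no site in the windows of Il6st and Jak1.

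The first comparison asks how the gene bodies of the pathway stand among those of all genes. Gene-body HC/CH was higher than in the median gene at Lif, Lifr, Il6st and Stat3, that is, at the ligand, both receptor chains and the transcription factor. It was lower at Socs3, the inhibitor, and not called at Jak1, the kinase. These were 4 of 6 members called higher, against 11.8% of the 18381 genes tested, and 1 of 6 called lower, against 18.7%. The Socs3 body holds 47.5 CpGs per kb, against 7.87 (Jak1) to 19.6 (Lif) in the other bodies. It lies partly within 1 kb of the protein-coding start, which is 861 bp inside the gene span. The median of the 6 differences was 0.55 on the log2 odds scale, and that of all genes tested was -0.01. Differences are log2 odds of a state minus those of the median gene, each replicate centred on its own median, and were tested by limma with Benjamini-Hochberg adjustment over all genes at 0.05, two-sided. Values after ± are limma's moderated SE over the 2 replicates, whose variance is shared in part over all genes tested. The median gene had HC/CH levels of 4.85% and 4.12% in replicates 1 and 2.

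In the ligand gene Lif, HC/CH was 7.72% of 1140 calls in replicate 1 and 7.37% of 339 calls in replicate 2 (0.78 ± 0.26, adjusted p = 0.032). Both replicates lay above the median gene. In the receptor gene Lifr it was 6.66% of 12792 calls in replicate 1 and 6.66% of 2776 calls in replicate 2 (0.57 ± 0.11, adjusted p = 0.00106). In percent, though not after centring on the median gene, the replicates of Lifr lay closest together. Both receptor genes were above the median gene in each replicate. In Il6st it was 6.97% of 5441 calls in replicate 1 and 5.92% of 1352 calls in replicate 2 (0.52 ± 0.13, adjusted p = 0.00736). In Stat3 it was 7.33% of 4404 calls in replicate 1 and 7.29% of 1084 calls in replicate 2 (0.72 ± 0.14, adjusted p = 0.00161), which placed Stat3 above 91.1% and 89.9% of all genes. Jak1 stood apart from these, with 4.32% of 7665 calls in replicate 1 and 3.90% of 1771 calls in replicate 2 (-0.16 ± 0.12, adjusted p = 0.31), close to the median gene in each replicate. Socs3 had 1 HC/CH call in each replicate, of 698 and 159 calls (-3.41 ± 0.47, adjusted p = 9.14e-05), and its replicates lay far apart on the log scale, where 1 call stands for a different share of each depth. With at least 10 calls per site, Lif and Socs3 could not be tested, and 0 of Lifr, Il6st and Stat3 were called higher, with differences of 0.79, -0.24 and 1.11 (adjusted p = 0.247, 0.795 and 0.25). Over the sites measured in both replicates, Lif had 0.77 (adjusted p = 0.0752).

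From high to low, the mean levels of HC/CH were 7.55% in Lif, 7.31% in Stat3, 6.66% in Lifr, 6.44% in Il6st, 4.11% in Jak1 and 0.386% in Socs3. The intervals of the first 4 overlapped in each replicate, so their order cannot be told at this depth. Those of Il6st and Jak1 were apart in replicate 1 and overlapped in replicate 2, as did those of Jak1 and Socs3. Those of Jak1 (3.87 to 4.80% and 3.04 to 4.91%) lay below those of Stat3 (6.58 to 8.14% and 5.81 to 9.0%) in both replicates, and those of Socs3 (0.0036 to 0.796% and 0.0159 to 3.45%) lay below those of Stat3 as well. Corrected by the duplexes, HC/CH was 7.53% and 7.50% in Lif, 6.96% and 7.42% in Stat3 and 3.75% and 3.88% in Jak1. Jak1 thus lay below the other 2 in each replicate with and without the correction.

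**Figure D1:**
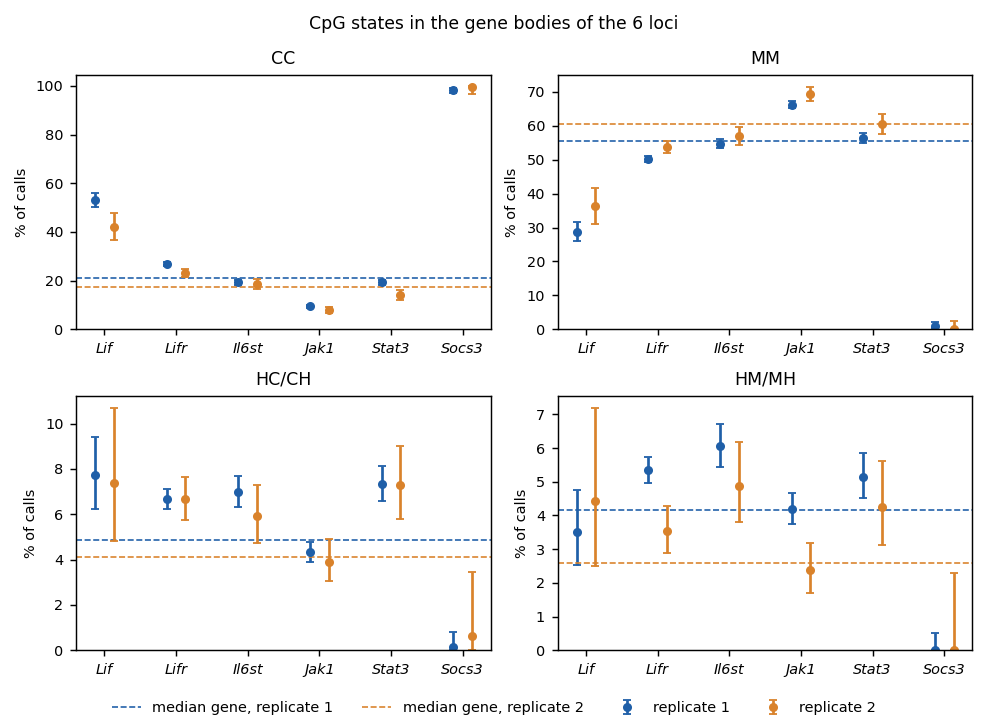
Levels of CC, MM, HC/CH and HM/MH in the gene bodies of the 6 genes, in percent of calls, for each replicate (points, with exact 95% intervals of counting error) and for the median of 18381 genes (dashed lines). HC/CH lies above the dashed line of its replicate in Lif, Lifr, Il6st and Stat3 and near 0 in Socs3, where CC takes 98.4% and 99.4% of calls.

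The other states separated the 6 bodies differently. CC was higher than in the median gene at Lif, Lifr and Socs3 (background 34.6%) and lower at Jak1 (background 32.8%). Lif had 53.2% of 1140 calls in replicate 1 and 42.2% of 339 calls in replicate 2 (1.94 ± 0.21, adjusted p = 3.6e-09), above 91.8% and 88.6% of genes, whereas Jak1 had 9.47% and 7.85% (-1.33 ± 0.10, adjusted p = 2.15e-12), with only 2.69% and 9.40% of genes below it. Socs3 was nearly without modification, with CC at 98.4% of 698 calls in replicate 1 and 99.4% of 159 calls in replicate 2 (8.39 ± 0.30, adjusted p = 5.65e-20). That leaves little room for modified states, so the lower HC/CH, MM, MC/CM and HM/MH of Socs3 are not separate from its CC. Il6st, at 19.4% and 18.4%, and Stat3, at 19.2% and 13.9%, did not pass the test (adjusted p = 0.838 and 0.0552). Stat3 was called lower under 4 of the alternatives: per-site means (adjusted p = 0.0198), 500 bp promoters (0.008), all starts (0.00638) and weights (0.0481).

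MM showed the opposite picture. CC, MM and MC/CM are shares of the same calls and take most of them, so their calls are not separate evidence. MM was higher at Jak1 (background 26.9%), with 66.2% and 69.4% (0.61 ± 0.06, adjusted p = 1.29e-06), and lower at Lif, Lifr and Socs3 (background 32.3%). MM was 28.8% and 36.3% in Lif (-1.52 ± 0.15, adjusted p = 6.93e-07) and 50.1% and 53.7% in Lifr (-0.35 ± 0.05, adjusted p = 4.08e-05). Socs3 had 1.00% and 0% (-7.89 ± 0.34, adjusted p = 3.52e-10), and as replicate 2 had 0 MM calls, this fitted value depends on the 0.5 added to each count. Hemimethylation, MC/CM, went with MM: higher at Jak1 (background 16.7%), at 15.4% and 16.4%, and lower at Lif, Lifr and Socs3 (background 22.3%). With at least 10 calls per site, the MC/CM calls of Jak1 (0.08, adjusted p = 0.863) and Lifr (-0.35, adjusted p = 0.224) were lost. MM was also called lower at Il6st over shared sites (-0.21, adjusted p = 0.0044), and MC/CM lower at Stat3 with weighted replicates (-0.18, adjusted p = 0.0379). Jak1 had the highest MM and MC/CM means of the 6 and, apart from Socs3, the lowest HC/CH.

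HM/MH, the state with hmC opposite mC, was called higher at Il6st alone (background 0.125%) and lower at Socs3 alone (background 3.14%). Il6st had 6.05% of 5441 calls in replicate 1 and 4.88% of 1352 calls in replicate 2 (0.72 ± 0.20, adjusted p = 0.0277), and the corrected levels were 3.49% and 4.56%. This call was lost with a 10-call minimum per site (0.29, adjusted p = 0.869), with at least 20 sites (0.70, adjusted p = 0.0837) and with both other promoter definitions. Socs3 had 0 calls of HM/MH in both replicates, which by a floor of 3 calls of the total allows levels of up to 0.430% and 1.89% (the exact intervals reach 0.527% and 2.29%), so its fitted difference (-4.55 ± 0.53, adjusted p = 4.62e-08) depends on the 0.5 added to each count. Stat3 had 5.15% and 4.24% as called and 2.46% and 3.81% as corrected (0.49 ± 0.21, adjusted p = 0.218). Lifr had 5.34% and 3.53% as called and 2.99% and 3.13% as corrected (0.37 ± 0.18, adjusted p = 0.283). In percentage points, Lifr (1.06, adjusted p = 0.0146) and Stat3 (1.32, adjusted p = 0.026) were called higher as well. The ratio of HC/CH to HM/MH was tested apart, and 0 of the 6 members passed, against 1.19% of genes called higher and 3.64% called lower. By limma, 1 of the 6, Socs3, was under 0.05 before adjustment, and 1 and 2 members passed with weighted replicates and in percentage points. HH was at or under 0.790% of calls in every gene body in replicate 1 and 0.738% in replicate 2. It was not tested.

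The second comparison sets each promoter against the body of its own gene. At least 5 sites in both regions of each replicate were needed, and 5 of the 6 genes had them: Socs3, with 26 and 4 promoter sites, was not tested. Il6st, Stat3 and Jak1 had more CC and less MM in the promoter than in the body, as did most genes (CC higher in 79.8% and MM lower in 77.9% of 14068 genes). CC lower in the promoter was called in 0 of the 5 members, with a background of 3.58%, and MM or MC/CM higher there in 0 of the 5, with 1.72% and 0.469%. Il6st and Stat3 also had less HC/CH (background 35.2%), less HM/MH (background 29.9%) and less MC/CM (background 61.1%). All states are shares of the same calls, and CC took 97.5% or more of the calls of these 2 promoters in each replicate. That leaves little room for modified states, so these lower calls are not separate from the CC calls. The HM/MH call was lost for Il6st with all starts (-0.54, adjusted p = 0.46) and for Stat3 with 500 bp promoters (adjusted p = 0.151). Jak1 had less MC/CM with weighted replicates (-2.45, adjusted p = 0.00235) and in percentage points (-9.63, adjusted p = 0.00221). HC/CH and HM/MH were called higher in the promoter in 0 of the 5 members, with backgrounds of 1.18% and 0.32%. For Lif and Lifr, 0 of the 5 states passed, and by limma 0 had an unadjusted p under 0.05 (smallest 0.609 and 0.547).

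The Il6st promoter had CC at 98.7% of 557 calls in replicate 1 and 99.1% of 111 calls in replicate 2, against 19.4% and 18.4% in its body (8.30 ± 0.51, adjusted p = 2.9e-07). Its 557 and 111 calls held 1 and 0 HC/CH calls (-4.31 ± 0.80, adjusted p = 2.16e-06), a fitted value that also depends on the 0.5 added. The Stat3 promoter had CC at 99.5% of 387 calls in replicate 1 and 97.5% of 121 calls in replicate 2, against 19.2% and 13.9% in the body (8.52 ± 0.58, adjusted p = 3.8e-07). It had 0 MM calls, which by the same floor allows up to 0.775% and 2.48% (the exact intervals reach 0.949% and 3.0%), and HC/CH of 0.258% and 1.65% (-3.14 ± 0.81, adjusted p = 0.000731). The measured CpGs of both promoters were thus almost wholly unmodified in both replicates, while the bodies behind them had HC/CH above the median gene. Of 122 CpGs, 57 and 18 were measured at Il6st, and of 81, 45 and 21 at Stat3.

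At the Jak1 promoter, the replicates went apart: CC was 83.3% of 317 calls in replicate 1 and 36% of 50 calls in replicate 2, and MM was 9.46% and 44%. The test still called CC higher (4.15 ± 0.72, adjusted p = 0.000217) and MM lower (-2.86 ± 0.76, adjusted p = 0.013) than in the body. These SEs and p-values borrow variance from other genes and do not reflect the gap between these 2 replicates alone. The 2 replicates did not measure the same CpGs, since replicate 1 had 31 of the 116 CpGs and replicate 2 had 8. At the 8 sites measured in both, CC was 56.3% (46.2 to 66.1%) and 36% (22.9 to 50.8%), and these intervals overlapped. At the 23 sites measured in replicate 1 alone, CC was 96.3% of 214 calls. The Jak1 promoter in replicate 2 therefore stands on sites that were less unmodified in replicate 1 as well.

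Set against the median promoter of 14977 genes, which had CC of 87.1% and 84.7%, the same 5 promoters lay on both sides. CC was higher at Il6st (3.62 ± 0.46, adjusted p = 0.000718) and Stat3 (3.59 ± 0.59, adjusted p = 0.00218), with a background of 28%. It was lower at Lif (-2.82 ± 0.50, adjusted p = 0.00311) and Lifr (-4.23 ± 0.50, adjusted p = 0.000539), with a background of 29.9%. Jak1 was not called (adjusted p = 0.0699), but over the sites measured in both replicates its CC was lower (-2.62, adjusted p = 0.00193), and its MM (2.40, adjusted p = 0.00186) and HM/MH (2.18, adjusted p = 0.0276) were higher. HC/CH was higher at Lif (2.27 ± 0.64, adjusted p = 0.018) and Lifr (2.17 ± 0.68, adjusted p = 0.0273), against a background of 8.43%, and lower at Il6st (-2.68 ± 0.67, adjusted p = 0.00996), against 14.5%. The levels behind the first 2 calls were 9.28% and 8.89% in Lif and 13.5% and 5.26% in Lifr. The Lifr replicates differed there, but their intervals (9.26 to 18.6% and 1.10 to 14.6%) overlapped. MM was higher at Lif and Lifr (background 28.4%) and lower at Il6st and Stat3 (background 25.9%). MC/CM was higher at Lifr (1.70 ± 0.57, adjusted p = 0.0453; background 19.7%) and lower at Il6st and Stat3 (background 17.8%). HM/MH was lower at Il6st and Stat3 (background 9.21%), each with 0 calls, and higher at 0 of the 5 (background 9.61%). The median promoter had HM/MH of 0.86% in replicate 1 and 0% in replicate 2, so these 2 differences depend on the 0.5 added to each count. Both HM/MH calls were lost after the duplex correction (adjusted p = 0.0529 and 0.0856), at shared sites (adjusted p = 0.0906 and 0.0957) and in percentage points (adjusted p = 0.952 for each). Apart from HM/MH, where they and the median promoter were all at 0% in replicate 2, Il6st and Stat3 were below the median promoter in each modified state called. With CC at 97.5% or more of their calls, these lower calls are not separate from those of CC. Lif and Lifr were above the median promoter in each modified state called. These calls depend on the start taken. With 1 kb either side of every protein-coding start of a gene, CC at Il6st was lower than in the median promoter (-1.15, adjusted p = 0.00213). Its MM was higher (1.13, adjusted p = 0.00682), and its MC/CM (0.53), HC/CH (0.35) and HM/MH (1.3) also changed side but were not called. CC at Lifr was higher than in the body (1.67, adjusted p = 1.4e-05). Neither HC/CH at Lif and Lifr (adjusted p = 0.114 and 0.352) nor MC/CM at Lifr (adjusted p = 0.0525) was called. CC and MM at Lif were not called there either (-0.69 and 0.47, adjusted p = 0.295 and 0.437). In percentage points, the HC/CH calls of Lif, Lifr and Il6st were lost (adjusted p = 0.0902, 0.153 and 0.104). At shared sites the MC/CM calls of Lifr, Il6st and Stat3 were lost, with differences of 1.65, -2.38 and -1.56 (adjusted p = 0.0697, 0.0636 and 0.0568). The CC, MM and MC/CM calls of Stat3 were lost with 500 bp promoters, with differences of 1.77, -2.12 and -1.07 (adjusted p = 0.0576, 0.0574 and 0.33). Stat3 MC/CM was also lost with at least 20 sites (adjusted p = 0.225) and in percentage points (adjusted p = 0.0662). Calls were gained with weighted replicates for Lifr HM/MH (1.41, adjusted p = 0.041), Lif MC/CM (adjusted p = 0.0215) and Stat3 HC/CH (adjusted p = 0.00888). With 500 bp promoters, Lifr HM/MH (2.64, adjusted p = 0.0277) and Lif MC/CM (adjusted p = 0.00018) were called higher, the latter also after the correction (adjusted p = 0.0427).

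For Lif and Lifr, the 5′ end of the gene span is not the CpG-dense start. Within 1 kb of the first start of Lifr (transcript Lifr-208), 20 CpGs are annotated, and CC was 25.1% of 223 calls in replicate 1 and 22.8% of 57 calls in replicate 2. The start of Lifr-201, 38945 bp downstream and shown above, has 158 CpGs within 1 kb, and CC was 98.2% of 379 calls in replicate 1 and 96.4% of 84 calls in replicate 2. HC/CH at that start was 0.792% and 0%, and MM was 0.264% and 0%. At the starts that follow, CC was 42.6% and 46.2% near Lifr-204 and 20.2% and 8.33% near Lifr-203. The start of Lifr-202 lies within the same stretch as that of Lifr-201 and had the same levels. The measured CpGs around these starts, 37 and 13 of the 158 at Lifr-201, were thus almost wholly unmodified in both replicates. Those around the other Lifr starts were mixed or methylated.

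Lif showed the same kind of difference between its starts in replicate 1. CC was 49.5% of 97 calls in replicate 1 and 42.2% of 45 calls in replicate 2 at the first start (Lif-202). At Lif-201, 9538 bp downstream, it was 92.2% of 167 calls in replicate 1 and 77.8% of 9 calls in replicate 2, where replicate 2 rests on 1 site, with an interval of 40.0 to 97.2%. The protein-coding start of Socs3 lies 861 bp inside the gene span. Its 158 CpGs within 1 kb were the joint highest number of all the starts, with those of Lifr-201. At Socs3, 43 and 3 of them were measured, and CC was 99.7% of 324 calls in replicate 1 and 100% of 22 calls in replicate 2. Il6st has further annotated starts 3523 to 10976 bp downstream, and CC was 98.7% and 99.1% at the first, 56.8% and 61.9% near Il6st-205 and 19% and 20.3% near Il6st-201, values with no test.

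**Figure D2:**
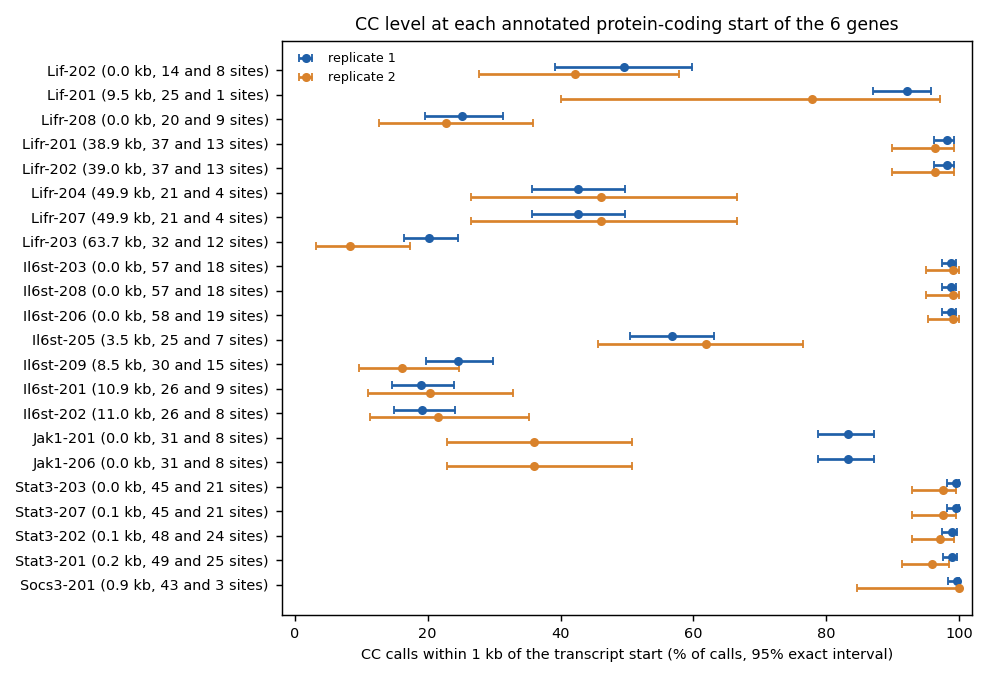
CC within 1 kb of each annotated protein-coding transcript start, in percent of calls, with exact 95% intervals, for replicates 1 and 2; brackets give the distance from the 5′ end of the gene span and the sites measured. The starts of Lifr-201, Il6st-203, Stat3-203 and Socs3-201 lie above 95% in both replicates, and those of Lif-202, Lifr-208, Lifr-204 and Lifr-203 under 50%.

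Along the loci, levels were taken in windows of 2 kb at steps of 1 kb, and a window was read where each replicate had at least 5 sites. Lifr had 91 such windows, and in 4 of them CC was over 90% in both replicates. Those that start 37000 and 38000 bp from the 5′ end hold the start of Lifr-201. The other 2, which start 24000 and 25000 bp from the 5′ end, hold no exon in GENCODE vM21, with CC of 93.9% and 97.4% in the first and 93.7% and 100% in the second. Each holds far fewer reference CpGs (13 and 13) than the window of the start (158). Lifr thus carried an unmodified stretch away from any annotated protein-coding start. Il6st and Stat3 had 1 window each over 90% in both replicates, at their promoters, Socs3 had 3 of 5, and Lif and Jak1 had 0.

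By the same windows, HC/CH on the lower replicate was highest inside the gene in Lifr, Il6st, Jak1 and Stat3, while in Lif a window inside the gene and the promoter window were nearly equal. The window of each gene with the highest HC/CH on the lower replicate was chosen by that value, so these levels are descriptions. In Lifr it began 32000 bp from the 5′ end, upstream of Lifr-201, with HC/CH of 13.3% of 203 calls and 15.6% of 45 calls. In Stat3 it began 33000 bp from the 5′ end, with 11.1% of 217 calls and 25% of 32. In Il6st it began at 21000 bp, with 9.74% and 9.76%, and in Lif at 6000 bp, with 8.96% and 12.2%, beside 9.28% and 8.89% at its promoter. The Jak1 window, at 108000 bp near the end of the gene, reached 10.1% of 296 calls and 8.93% of 112, so Jak1, with the lowest body level after Socs3, held a stretch near the highest windows of Il6st and Lif. In Socs3, the highest was upstream of the gene, at 3.42% and 12%.

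**Figure D3:**
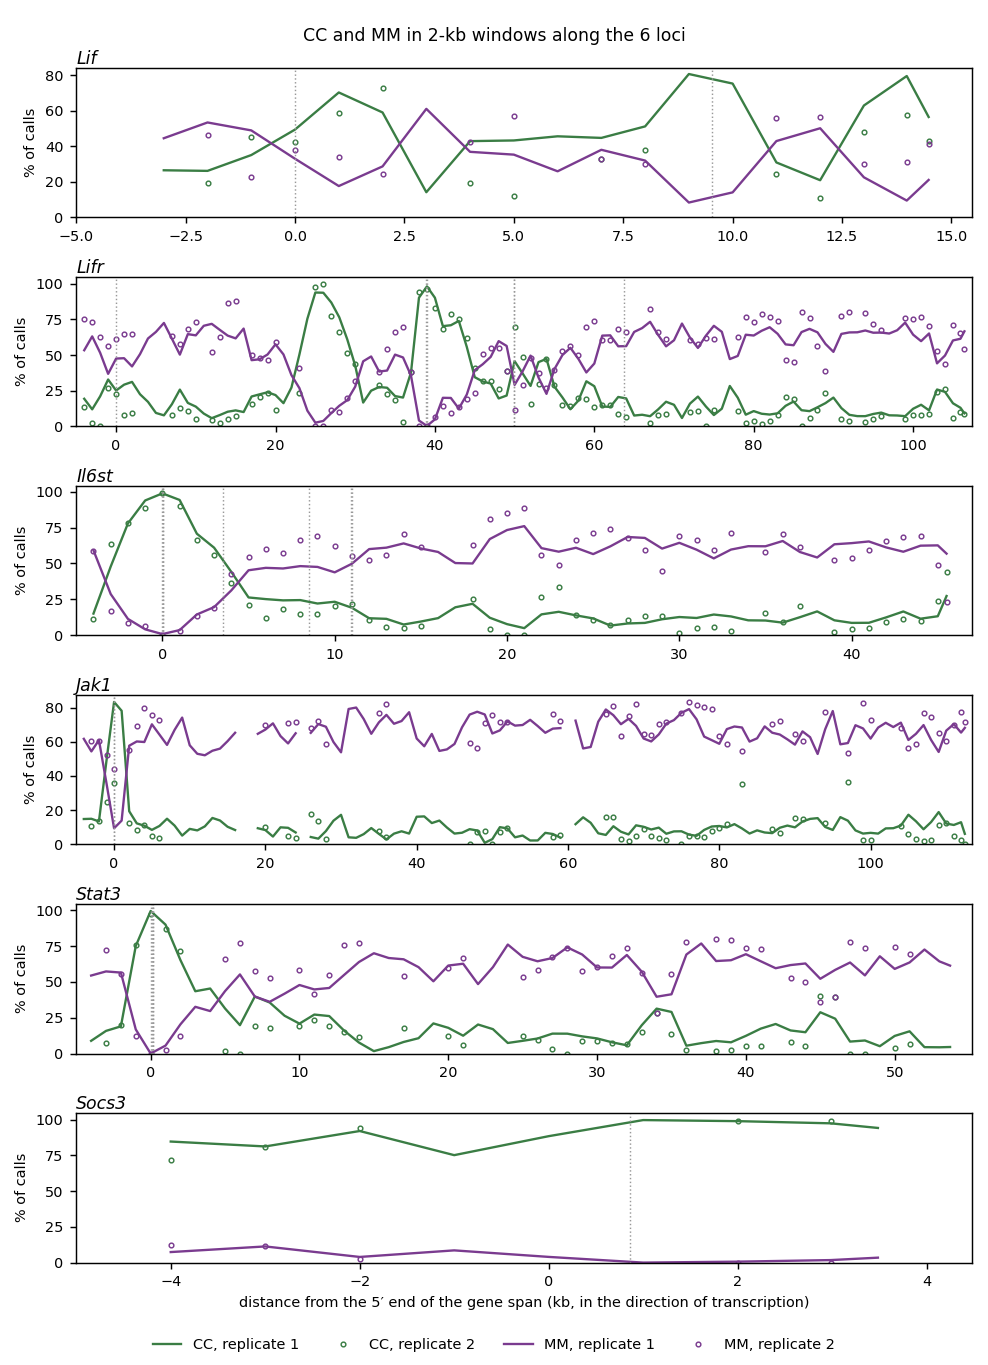
CC and MM in 2-kb windows along each locus, in percent of calls, against the distance from the 5′ end of the gene span in kb; lines are replicate 1, open circles replicate 2, dotted lines the protein-coding starts, and windows with under 5 sites are left out. CC peaks at the promoters of Il6st and Stat3 and, in Lifr, near 39 and 25 kb, while MM is the main state in most other windows of Lifr, Il6st, Jak1 and Stat3, with exceptions such as the Lifr window that starts 42000 bp from the 5′ end (CC 73.9% and 75%).

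**Figure D4:**
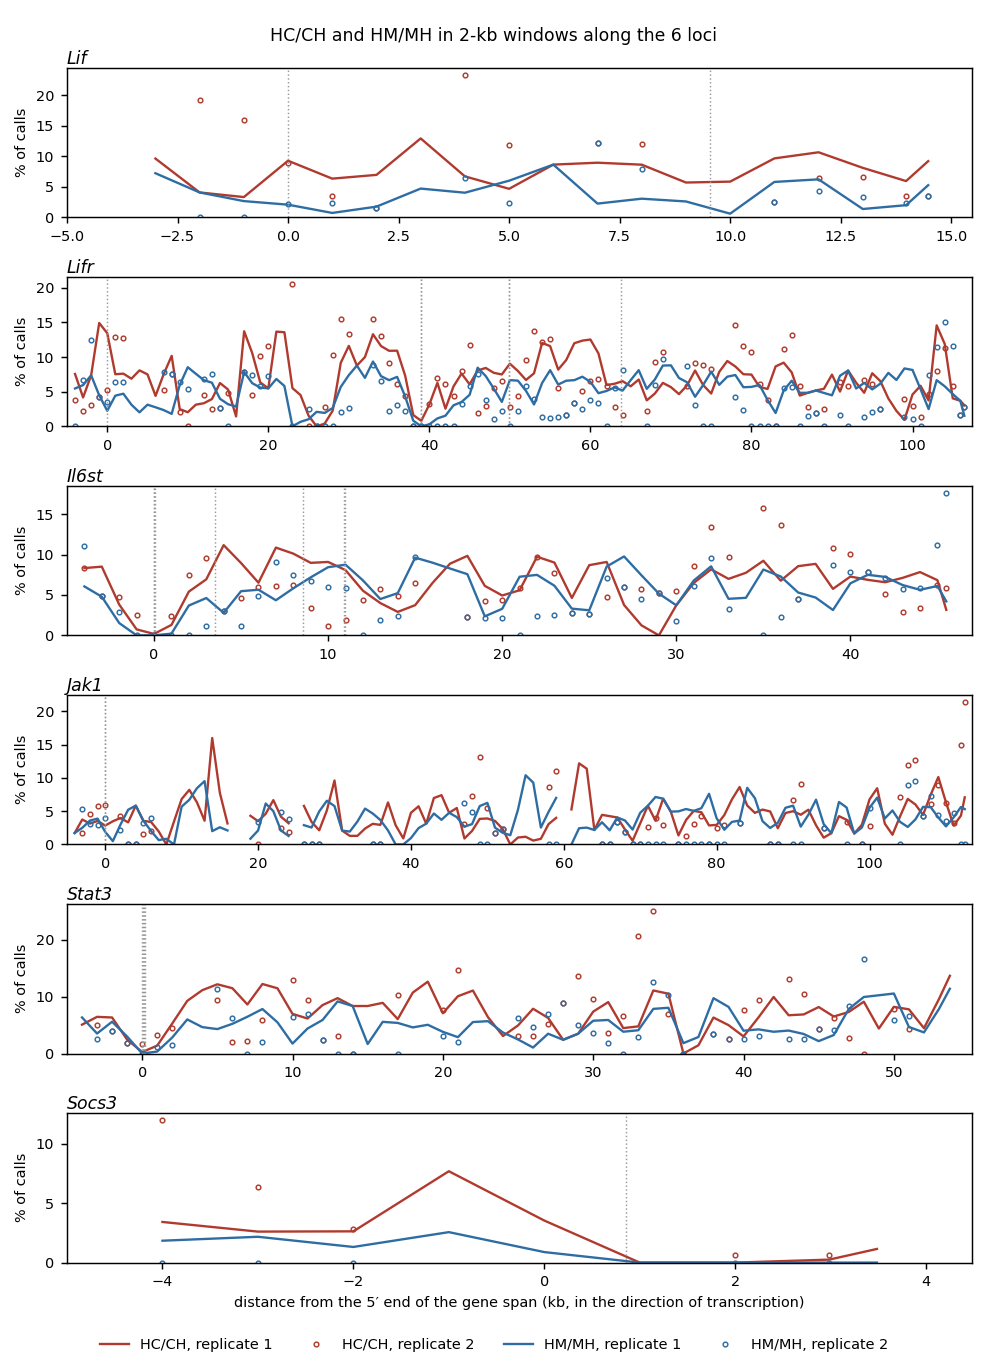
HC/CH and HM/MH in the same windows, drawn in the same way, on a smaller scale. Both fall to near 0 where CC peaks at the promoters of Il6st and Stat3, at Lifr-201 and over the body of Socs3, and the circles of replicate 2 scatter more widely than the lines of replicate 1.

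Exons, with their UTRs, and introns of the bodies were compared as values. In Lifr, exons had less CC than introns in both replicates, 15.8% and 10.4% against 28.8% and 25.7%, and more MM, 59.3% and 68% against 48.4% and 50.9%. In Il6st, CC was 13.8% and 14.3% in exons and 21.9% and 20.5% in introns. In both genes CC was thus the lower in exons in each replicate, with no test. Stat3 exons had CC of 15.5% and 23.2% and introns 19.8% and 12.4%, which differ in opposite directions in the 2 replicates. HC/CH of exons and introns overlapped in their intervals in each gene and replicate but 1: in replicate 2 of Jak1, exons had 8.13% and introns 3.33%, where replicate 1 had 5.51% and 4.18%.

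Since each call keeps the strands apart, HC/CH could be split by whether the hmC was on the sense strand of the gene. In Lifr the share on the sense strand was 51.5% (interval 48.1 to 54.9%) in replicate 1 and 54.6% (interval 47.1 to 61.9%) in replicate 2. In Il6st it was 53.0% (interval 47.9 to 58.1%) and 55% (interval 43.5 to 66.2%), and in Stat3 48.3% (interval 42.7 to 53.9%) and 49.4% (interval 37.9 to 60.9%). These intervals all hold 50%. In Jak1 it was 41.7% (interval 36.3 to 47.2%) in replicate 1, which lies under 50%, and 44.9% (interval 32.9 to 57.4%) in replicate 2, which holds 50%. Over the 3 asymmetric states, 6 genes and 2 replicates, 33 shares could be computed, and 4 of their intervals left out 50%. For each of these 4, the interval of the other replicate held 50%. The side also changed between replicates 1 and 2 in HM/MH of Lif (32.5% and 53.3%) and MC/CM of Jak1 (47.1% and 51.7%).

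STAT3 binds the motif TTCCNGGAA, which reads the same on both strands, and its copies show what the CpGs near such letters carried. The 6 loci held 14 copies, 3.79 per 100 kb, beside 2.71 per 100 kb on the 4 chromosomes they lie on. Lif had 0 copies, Lifr 4, Il6st 1, Jak1 5, Stat3 3 and Socs3 1. None was in the 250 bases before the RefSeq starts of these genes, which hold it in 0.913% of 32851 mouse promoters. The Socs3 copy lies between the RefSeq start of that gene and its GENCODE protein-coding start, which is further downstream. A match of letters is not a binding site shown by data. Of the copies, 4 are shown in the direction of transcription, with the motif in capitals, and these were picked after their values were seen, as those whose nearby CpGs were not mainly MM.
Socs3, chr11:117969229-117969257, minus strand: ggccgggcagTTCCAGGAAtcggggggcg
Stat3, chr11:100934883-100934911, minus strand: gagggctagtTTCCGGGAAcaccagagca
Lifr, chr15:7115507-7115535, plus strand: tggggagagaTTCCAGGAAatgaaacaac
Lifr, chr15:7126476-7126504, plus strand: ccaacagttcTTCCAGGAAgacagcatgc
The Socs3 copy begins 61 bases before the protein-coding start, among 22 CpGs within 100 bases. At the 8 sites measured there in replicate 1, 47 of 47 calls were CC (interval 92.5 to 100%). These sites lie close together, so their calls may come from far fewer read pairs. The Stat3 copy, in an intron 4479 bases after the start of Stat3-201, holds a CpG itself, and its 14 calls in replicate 1 were 7 CC, 6 MM and 1 HC/CH. At the 2 sites measured within 100 bases of that copy, its own included, HC/CH was 16.7% of 30 calls (5.64 to 34.7%).

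The first Lifr copy lies in the unmodified intron stretch described above, with CC at 26 of 27 calls in replicate 1 and 5 of 6 in replicate 2. The second lies at -3073 bases from the start of Lifr-201, and its CpGs within 100 bases had HC/CH in 6 of 22 calls in replicate 1 (10.7 to 50.2%). Replicate 2 had no site near the copies of Socs3, Stat3 and the second of Lifr shown here. The intervals are wide, and no level near a motif was tested. At the other copies with calls, MM was the largest class in replicate 1.

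HC/CH was also read against the CC of its surroundings. Bins of 2 kb with at least 5 sites in each replicate were classed by CC in one replicate, and HC/CH was read in the other, so that the same calls did not serve both. Classed in replicate 1, the bins of the 6 loci had HC/CH in replicate 2 of 3.95% (3.03 to 5.04%) where CC was under 10% (34 bins), 6.78% (6.07 to 7.55%) at 10 to 50% (81 bins), 7.29% (5.55 to 9.36%) at 50 to 90% (10 bins) and 1.82% (0.734 to 3.71%) at 90% or more (5 bins). The bins of 10 to 50% CC thus had more HC/CH than those under 10%, with intervals that did not overlap, and the unmodified ones had the lowest level. CC and HC/CH are shares of the same calls. In the last class CC took 92.5% of the calls of replicate 2, which leaves little room for HC/CH, so its low level was largely set by the class. With the replicates exchanged, the levels in replicate 1 were 5.65%, 7.73%, 4.99% and 0.823%. Over all bins of the genome, the levels in replicate 2 were 2.80%, 4.64%, 5.01% and 1.24%. The loci were above all bins in each class there. With the replicates exchanged, all bins had 4.02%, 5.45%, 4.43% and 1.16%, and the loci were above them in 3 of the 4 classes. The bins of a locus are neighbours, and no test was run on them.

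The other genes of the pathway were counted from lists by role, again for gene-body HC/CH and against the same 11.8% and 18.7% of genes called higher and lower. Of 6 further ligands, 5 could be tested and 0 passed, with 0 at an unadjusted p under 0.05 by limma. Their median difference was 0.29, and Ctf1, the gene of cardiotrophin-1, had 1.13 ± 0.54, adjusted p = 0.129. Of 4 further receptors, 2 were higher and 2 lower. Cntfr, which encodes the receptor chain for ciliary neurotrophic factor, had 8.92% and 9.37% (1.07 ± 0.20, adjusted p = 0.000946), and Il6ra, the interleukin-6 receptor chain, had 6.35% and 7.32% (0.61 ± 0.15, adjusted p = 0.00836). Osmr, the oncostatin M receptor chain, had 3.62% and 2.74% (-0.55 ± 0.13, adjusted p = 0.00632), and Il11ra1, the interleukin-11 receptor chain, had 4.47% and 2.70% (-0.41 ± 0.14, adjusted p = 0.0374). Lifr and Il6st, the chains through which LIF signals, were called higher as Cntfr and Il6ra were.

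Of 5 further kinases and phosphatases, 2 were higher and 0 lower. Both are phosphatases: Ptpn6 (0.68 ± 0.21, adjusted p = 0.0257) and Ptpn11 (0.38 ± 0.13, adjusted p = 0.0431). The kinase genes Jak2, Jak3 and Tyk2 did not pass, as Jak1 did not, and Jak3 and Tyk2 had differences of 0.41 ± 0.19 and 0.37 ± 0.18. Of 6 further STAT genes, 0 were higher and 1, Stat4, was lower (-0.38 ± 0.11, adjusted p = 0.0195). Stat3 was therefore called higher while 0 of the other 6 were, although Stat5a (0.46 ± 0.18, adjusted p = 0.0633) and Stat5b (0.34 ± 0.13, adjusted p = 0.0549) lay near the threshold, and the differences between STAT genes were not tested.

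Of 11 further inhibitors, 4 were higher and 1 lower. Pias2 (0.66 ± 0.14, adjusted p = 0.00257), Pias4 (0.88 ± 0.28, adjusted p = 0.028) and Socs2 (0.57 ± 0.15, adjusted p = 0.0121) were higher, and Pias3 was the other; the PIAS proteins inhibit STATs and the SOCS proteins act at receptors. Socs6 was lower (-1.15 ± 0.13, adjusted p = 1.48e-05), at 2.67% and 1.65%. Unlike Socs3, Socs6 had CC of only 22.5% and 21.4%, so the low HC/CH of these 2 SOCS genes came with different levels of CC.

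Socs3 is itself a target of STAT3, and 9 further genes were listed as such targets in mESCs. CC was called higher in 9 of 9 bodies (34.6% of all genes), with a median difference of 4.39, and MM lower in 9 of 9 (32.3% of all genes). Some of these bodies were about as unmodified as the promoters. In replicate 1, CC in promoter and body was 98.8% and 93.6% in Junb and 93.3% and 97.8% in Pim3, but 92.4% and 37.4% in Tfcp2l1. How far CpG density near the start sets these levels was not tested. HC/CH was higher in 2 and lower in 4. The 2, named after their values were seen, were Klf5 (0.77 ± 0.18, adjusted p = 0.00458) and Tfcp2l1 (0.47 ± 0.16, adjusted p = 0.0359), which encode transcription factors of naive pluripotency. The 4 were Pim3 (-3.19 ± 0.44, adjusted p = 9.31e-05), which encodes a kinase, Junb (-2.85 ± 0.39, adjusted p = 9.67e-05), Pim1 (-1.68 ± 0.33, adjusted p = 0.00151) and Myc (-1.54 ± 0.31, adjusted p = 0.0019). Pim3 had HC/CH of 0.491% of 407 calls in replicate 1 and 0% of 111 in replicate 2, so its fitted value depends on the 0.5 added to each count. Junb had 0.427% of 468 calls and 0.552% of 181, so its value also rests on few calls. These 4 genes had CC between 91.1% and 97.8% over both replicates, close to the 98.4% and 99.4% of Socs3. High CC leaves less room for HC/CH, since both are shares of the same calls. HM/MH was lower in the same 4 of 9 (3.14% of all genes) and higher in 0 (0.125% of all genes). In replicates 1 and 2 it was 0.491% and 0% in Pim3, 0.214% and 0% in Junb, 0.375% and 2.06% in Pim1 and 0% and 1.87% in Myc. The median gene had 4.16% and 2.59%, so Pim1 and Myc lay much nearer to it in replicate 2. Fitted values from levels of 0% depend on the 0.5 added to each count.

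**Figure D5:**
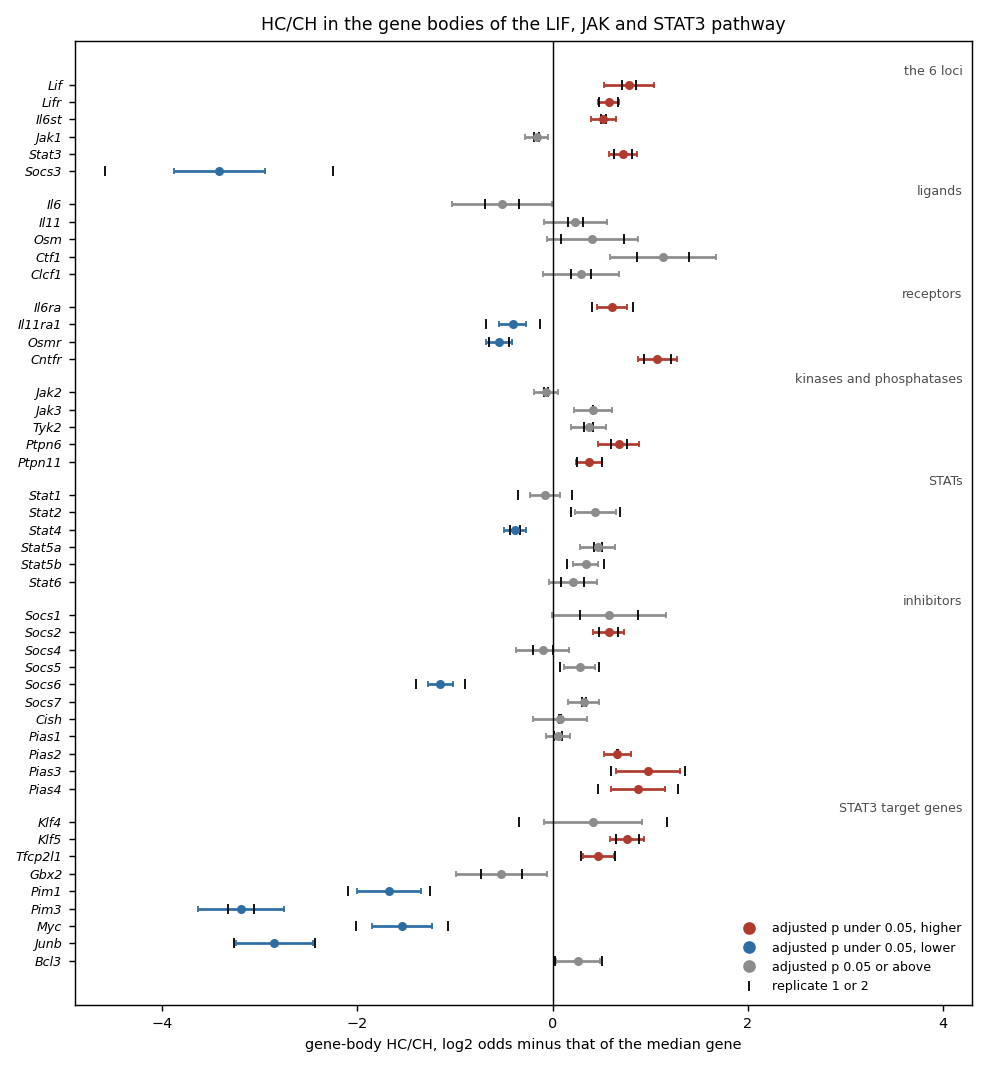
Gene-body HC/CH of the 6 genes and of the further genes of the pathway, as log2 odds minus those of the median gene; dots and bars are the estimate and its SE, black ticks the replicates, and colours the adjusted p. Of the 6, Lif, Lifr, Il6st and Stat3 lie to the right of 0 and Socs3 far to the left, beside the target genes Pim3 and Junb.

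The genes whose bodies were most alike were found by the Euclidean distance over 12 values, the levels of the 6 grouped states in both replicates, among 18381 genes. For Socs3 they were Mcl1 (distance 0.802) and Rps2 (1.12), for Lifr Zfp423 (1.35) and Mvp (1.72), and for Il6st Ubp1 (1.61) and Ifngr1 (1.97). For Stat3 they were Ppp4r1 (1.85) and Mb (2.02), for Jak1 Abtb2 (1.51) and AL607142.1 (1.52), and for Lif Tmem11 (3.25) and Ctbp2 (3.28). The median distance to all genes was 141 percentage points for Socs3, 56.9 for Lif and 16.5 to 22.4 for the other 4. Mcl1 had CC of 98.7% and 99.2%, and Ifngr1, which encodes another cytokine receptor chain, had HC/CH of 6.89% and 5.36%.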

How the data were processed

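SCoTCH-seq of genomic DNA was measured in 2 replicates of E14 mESCs in 1 condition. The authors deposited, per CpG and replicate, whole-number counts for the 9 CpG states and the percent of the site's calls that each took, for sites with at least 5 calls outside blacklisted regions of mm10 (GRCm38). The submitters' processing notes name cutadapt 4.6 and Picard 3.1.1. Levels were computed here from the deposited counts and not from the deposited percent columns. Positions were matched to GENCODE vM21, and sequences were taken from RefSeq (GRCm38.p6).

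Calls were summed per promoter (1 kb either side of the 5′ end), gene body and gene, each replicate apart. For each state, log2 odds with 0.5 added to each count were fitted by limma 3.58.1 in R 4.3.3 over all protein-coding genes with at least 5 sites per region and replicate, with variances moderated along the log2 of the calls and Benjamini-Hochberg adjustment. Promoter against body was fitted on the difference within a replicate. HM/MH and the other levels were also corrected with call rates computed from the synthetic duplexes of each replicate. Python 3.11.15, numpy 2.4.6, pandas 2.3.3, scipy 1.17.1 and matplotlib 3.10.9 did the rest. On simulated counts for the gene body (18381 genes, 200 changed), changes of 1 and 1.5 in log2 odds were recovered in 92% and 100% of genes for CC and in 68% and 84% for HC/CH. Of the calls made there, 11.9% for CC and 21.2% for HC/CH were false. The simulation gave all unchanged genes the same level, assumed the noise between replicates and changed far fewer genes than the data call. Its shares of recovered and false calls therefore need not hold for the data.

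The mean depth per site was 10.5 calls in replicate 1 and 6.36 in replicate 2, from 143497239 and 31306245 calls. Intervals cover counting error only, and read pairs are not independent molecules where PCR copies remain. Calls at neighbouring CpGs are not independent either where 1 read pair covers them. The 6 genes, the lists, the named windows and the motif were chosen with earlier results of these data known. Of each further list, up to 4 genes with the smallest adjusted p for gene-body HC/CH are named, and others are named as exceptions. For each of the 6 genes, the 2 most alike genes and the 2-kb window of highest HC/CH are given. The alternatives were a coverage minimum, shared sites, per-site means, other promoters, a site minimum, weights, percentage points and the correction.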

Additional observations from a re-analysis of the deposited data

How the results depend on the processing

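The 2 replicates form 1 group, so there were no groups to pair. Promoter and body were paired within a replicate, and without this block the promoter-to-body comparison kept all 12 calls. For the body against the median gene, 19 of 30 values were called, and 4 of the 20 that could be tested with at least 10 calls per site. The states of a gene are shares of the same calls, so these values are not independent. Of the 4 members higher in HC/CH, Lif could not be tested there, and Lifr (0.79), Il6st (-0.24) and Stat3 (1.11) were not called. Il6st CC was 0.60 and Lifr HM/MH -0.11 under that minimum. For promoter against body, 12 of 25 values called became 4 of 15 with 500 bp promoters and 5 of 5 with at least 20 sites, where fewer genes could be tested. For promoters against the median, 16 of 25 called became 9 of the 15 that could be tested with 500 bp promoters, 2 of 5 with at least 20 sites and 11 of 20 at shared sites, and, with all 25 tested, 8 with all transcript starts, 10 in percentage points and 19 with weights. Stat3 HM/MH there was also lost with per-site means (adjusted p = 0.0519), 500 bp promoters (adjusted p = 0.283) and at least 20 sites (adjusted p = 0.583). For HC/CH over HM/MH, 0 calls became 1 with weighted replicates and 2 in percentage points. None of the promoter comparisons could be tested with at least 10 calls per site.

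With all transcript starts, the Il6st promoter changed side in CC (-1.15), MC/CM (0.53), MM (1.13), HC/CH (0.35) and HM/MH (1.3), Lif MC/CM was -0.012, and against the body Lif was 1.15 in CC, -1.02 in MM and -0.075 in HC/CH, and Lifr 1.67, -1.08 and -0.78. The other changes of sign were in values that were not called: Il6st CC in the body was 0.13 at shared sites and 0.041 with 500 bp promoters, Stat3 MM -0.031 at shared sites and Lif HM/MH -0.018 with weights. Against the body, Lifr CC was 0.085 with per-site means, Lifr MM -0.029 with weights, Jak1 HC/CH -0.10 with per-site means and -0.36 with weights, and Jak1 HM/MH 1.01 corrected and 0.92 at shared sites. HC/CH over HM/MH was -0.038 in Lifr and 0.34 in Jak1 when corrected. In Jak1 it was 0.077 with the 10-call minimum, 0.046 at shared sites and 0.021 with per-site means, and in Socs3 -0.70 percentage points. The cause was not tested for any of these.

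The median level of the 6 bodies was 21.9% for CC, 23.6% with 500 bp promoters and 19.8% with all starts. It was 53.9% for MM and 56.8% corrected, and 4.28% for HM/MH and 2.88% corrected. Without one of the replicates it was 20.8 to 23% for CC, 52.4 to 55.4% for MM, 6.29 to 6.81% for HC/CH and 3.89 to 4.67% for HM/MH. Depth limits the promoters of Jak1 and Socs3 in replicate 2, with 8 and 4 sites, and each level near a motif.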
